A study of Drosophila melanogaster with 8 samples.

Results

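The genes described here encode proteins of the mitochondrial ribosome of Drosophila melanogaster. They were taken as the protein-coding entries whose names start with mRpL or mRpS, which gave 73 genes of 23983 entries in the muscle table and the same 73 of 17898 entries in the whole-fly table. By name, 47 belong to the large subunit (mRpL) and 26 to the small subunit (mRpS). RNA sequencing compared wildtype adults with adults labelled mutant, which the series' design text describes as a knockout of anw, placed by the title among regulators of alternative splicing. There were 8 libraries, 2 each of wildtype muscle, mutant muscle, wildtype whole fly and mutant whole fly, from stocks kept at 25 °C. The labels give no allele, genetic background, sex or age beyond adult, and whether the repeats are separate flies is not stated. The p-values therefore measure how far these samples spread, which could be technical. The symbol anw was not paired with a gene in the tables used here, so the knockout could not be checked on its own RNA.

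Mitochondria keep a small genome of their own, and its messages, all for subunits of the respiratory chain and ATP synthase, are translated inside the organelle by a dedicated ribosome. The RNA of that ribosome comes from the mitochondrial genome, while its proteins are encoded in the nucleus, made in the cytoplasm and imported. Many of them descend from bacterial ribosomal proteins, and others were added in the mitochondrial lineage. Flight muscle, packed with mitochondria, is a tissue with a large demand for their products. Genes numbered up to mRpL36 or mRpS21, with mRpL47, mRpS24 and mRpS28 but without mRpS18A and mRpS18B, were counted as of bacterial type, which gave 43 of the 73, and the other 30 as of mitochondrial type. The genes lie on all large chromosome arms, with 12 on 2L, 12 on 2R, 17 on 3L, 21 on 3R and 11 on X. They are short, with a median exonic length of 783 bases (327 to 2078) against 1737 for all protein-coding entries.

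The unit was FPKM, in which reads are divided by exonic length in kilobases and by a library total as scaled by the authors. Between 18580751 and 22210197 reads per library were assigned to genes, and 72 of the 73 genes reached an FPKM of 1 in 2 or more of the 4 libraries of each tissue and were tested. In those 72 the fewest reads in a library were 40 and the most 3311. The exception, mRpL53 (2R, 13954195 to 13955664), had 0 reads in all 8 libraries. All its 829 exonic bases lie inside CG33155 on the same strand, a gene that stood at only 0.157, 0.122, 0.166 and 0.230 FPKM in muscle and 0.340, 0.560, 0.121 and 0.127 in whole fly (wildtype first). The 2 mutant muscle libraries resembled each other less than the 2 wildtype ones, with correlations of log2 values of 0.878 and 0.973 across 10079 entries, while for the 72 genes of the mitochondrial ribosome these were 0.956 and 0.972. In whole fly the values across 11419 entries were 0.99 for mutant and 0.991 for wildtype. The muscle label held for markers such as Act88F, fln and Mhc, which took between 2.28% and 3.23% of reads in the muscle libraries and between 0.695% and 1.197% in the whole-fly ones. Muscle libraries also held RNA of fat body genes, at 4.87% and 2.76% of reads in wildtype, against 1.72% and 3.12% in mutant. In whole fly these genes took between 1.40% and 1.76% of reads. They were thus above the whole-fly share in both wildtype muscle libraries and in mutant muscle replicate 2. In wildtype replicate 1 they also exceeded the muscle markers (2.28%), and in mutant replicate 2 they were scarcely above them (3.11%). Neuronal markers also took more reads in muscle, between 0.042% and 0.057%, against 0.018% to 0.031% in whole fly.

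Tested members of the mitochondrial ribosome ran from 6.87 to 132 FPKM in wildtype muscle replicate 1. In wildtype whole-fly replicate 1 they ran from 8.67 to 69.5. In wildtype muscle the median was 21.1 and 20.7 FPKM, and in wildtype whole fly 24.2 and 25.2. The highest in both was mRpL28, a large-subunit protein of bacterial type, at 132 and 134 FPKM in wildtype muscle and 69.5 and 70.5 in wildtype whole fly. No other member came near it in muscle, where mRpL42 followed at 74.2 and 69.5 FPKM and the small-subunit gene mRpS7 at 53.3 and 65.7. In whole fly mRpS22 followed at 54.0 and 58.4 FPKM and mRpL9 at 46.8 and 50.1, and mRpL9 was not separated from the next in order, mRpL2, at 45.0 and 48.6. At the low end of muscle stood mRpL21 with 8.36 and 7.43 FPKM, mRpL11 with 7.27 and 8.88, and mRpS18B with 8.13 and 9.08, whose ranges overlap. At the low end of whole fly stood mRpL54 with 8.98 and 8.12 FPKM, mRpL21 with 10.3 and 10.1, and mRpL34 with 8.67 and 12.1.

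The muscle and whole-fly tables rest on different annotations and separate scaling, so levels across tissues are set side by side without a test. Across the 72 genes the wildtype levels in muscle and whole fly had a Spearman correlation of 0.61, and the mutant levels 0.58, as a description over genes that share libraries. The ratio of muscle to whole-fly FPKM in wildtype ran from 0.286 for mRpL39 to 2.13 for mRpL54, with mRpS14 at 2.003 and mRpL28 at 1.90. The order of the members is thus related in the 2 preparations, with single genes far from it.

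**Figure D1:**
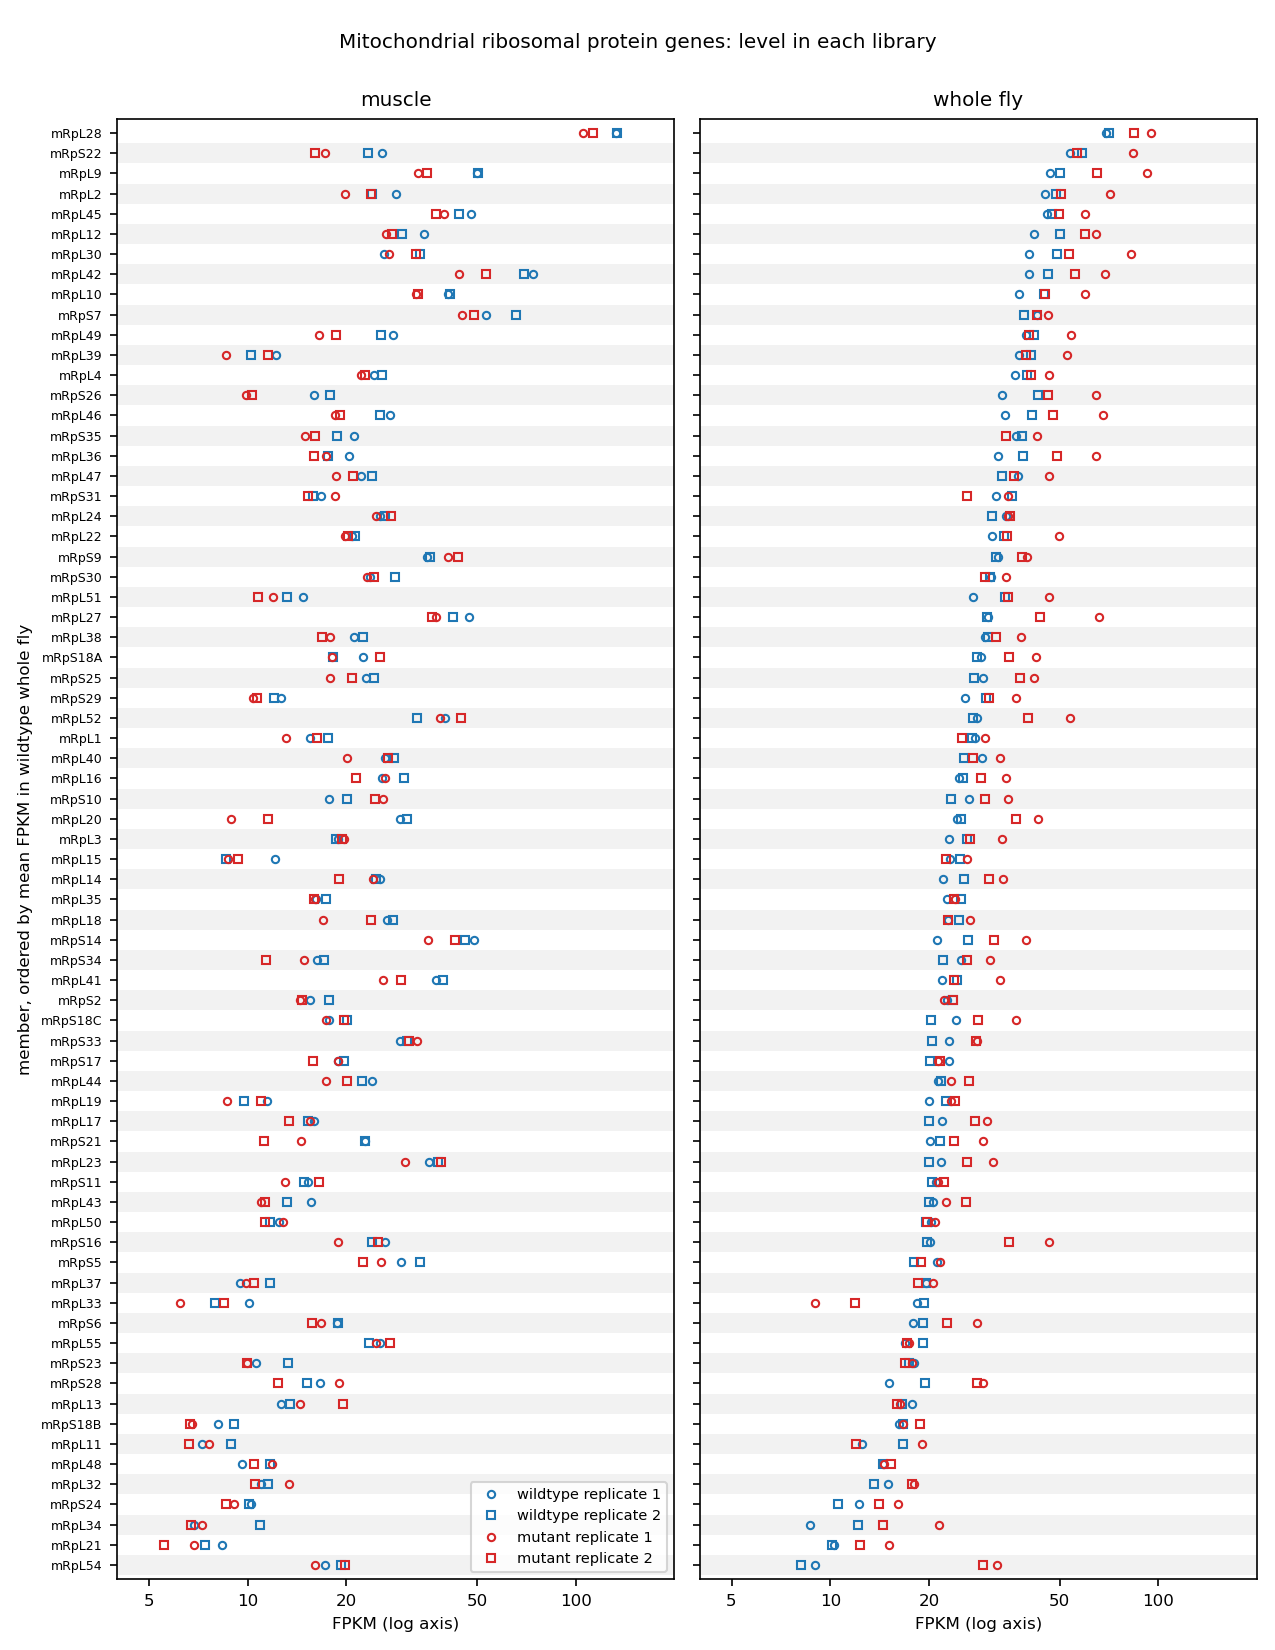
FPKM (log axis) of the 72 tested genes in each of the 8 libraries, one row per gene, ordered by mean level in wildtype whole fly. Blue marks are wildtype and red marks mutant, circles replicate 1 and squares replicate 2. In whole fly most red marks lie to the right of the blue ones, with mRpL54 at the bottom far apart (8.98 and 8.12 against 32.1 and 29.3) and mRpL33 the other way. In muscle most red marks lie to the left, mRpL20 farthest.

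In whole flies the RNA of the mitochondrial ribosome was higher in the mutants. Of the 72 genes 65 had a positive difference and 7 a negative one, with a median of 0.27 (log2, mutant minus wildtype) against 0.02 over all 11419 entries tested. By limma with Benjamini-Hochberg adjustment over all entries, 16 rose and 1 fell. That is 22.2% higher, where 9.94% of all entries were called higher and 10.8% lower. In 47 of the 72 both mutants lay above both wildtypes, against 34.5% of all entries, and in 2 both lay below, against 31.5%. The summed FPKM of the set was 1948 and 2038 in wildtype, against 2774 and 2287 in mutant. The sum was thus higher in both mutants, by unequal amounts. As a share of reads the set took 0.181% and 0.197% in wildtype, against 0.231% and 0.200% in mutant, so the second mutant was scarcely above the second wildtype on that scale.

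The single libraries show the same inequality. Against the mean of the wildtypes, the median of the 72 genes was 0.41 (log2) in mutant replicate 1, with 67 above, and 0.16 in mutant replicate 2, with 55 above. When wildtype replicate 1 was left out, 6 members were called higher, and 15 when wildtype replicate 2 was. Leaving out mutant replicate 1 gave 7, and leaving out mutant replicate 2 gave 39. Over all entries the same fits called 728 of 11129, 784 of 11120, 746 of 11233 and 1659 of 11204 higher, in that order. The genes mRpL54, mRpS16, mRpL27, mRpL52 and mRpL20 stayed higher, and mRpL33 lower, in each of these fits. The median of the members was positive, between 0.16 and 0.41, in every fit tried, rescalings included. The authors' whole-fly totals were 1.02 and 1.07 times the gene-assigned reads in wildtype, against 0.935 and 0.984 in mutant. With gene-assigned reads as the library total, a choice made after seeing the data, 9 members were called higher. The median of all entries moved from 0.02 to -0.09 and that of the members to 0.16. Of the 72 members 50 were then positive and 22 negative. In 31 both mutants lay above both wildtypes, and in 9 both lay below. Among all entries this choice turned 1135 higher and 1237 lower into 859 and 1748.

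Among large-subunit proteins of bacterial type, the leading one was mRpL27, whose bacterial counterpart reaches into the catalytic centre where peptide bonds are formed. It lies on 2L (4458595 to 4459638) and had 30.3 and 30.1 FPKM in wildtype, against 66.0 and 43.6 in mutant whole flies, a rise of 0.81 ± 0.18 (log2, SE, limma adjusted p = 0.0204). The mutant libraries were far apart but both above the wildtypes. mRpL9 (3R, 15330738 to 15331588) had 46.8 and 50.1 FPKM in wildtype, against 92.7 and 65.0 in mutant, a rise of 0.67. mRpL20, whose bacterial counterpart binds ribosomal RNA early in assembly of the large subunit, had 24.3 and 25.0 FPKM in wildtype, against 43.1 and 36.7 in mutant, a rise of 0.67 ± 0.11 (limma adjusted p = 0.00699). mRpL36, one of the smallest ribosomal proteins, had 32.5 and 38.7 FPKM in wildtype, against 64.5 and 49.0 in mutant, a rise of 0.65. In each of these genes the wildtype and mutant libraries did not overlap. Further large-subunit genes that rose were mRpL23 (0.44), a protein at the exit of the tunnel through which the new peptide leaves, mRpL17 (0.44), mRpL12 (0.43), the stalk protein that recruits translation factors, and mRpL14 (0.41). Of the exonic bases of mRpL17, 23.6% are shared with CG34263 on the opposite strand.

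The only member called lower was mRpL33 (X, 4321764 to 4322231), another very small protein of bacterial type. It had 18.4 and 19.3 FPKM in wildtype, against 8.97 and 11.9 in mutant, a fall of -0.81 ± 0.15 (log2, SE, limma adjusted p = 0.00826). These values rest on 127 and 141 reads in wildtype, against 65 and 82 in mutant. In muscle it had 10.1 and 7.95 FPKM in wildtype, against 6.23 and 8.47 in mutant, where the groups overlap. Neither mRpL33 nor mRpL27 or mRpL20 shares exonic bases with another annotated gene.

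The largest whole-fly difference among the 72 belonged to mRpL54 (2R, 21060789 to 21061587), a large-subunit protein of mitochondrial type. It had 8.98 and 8.12 FPKM in wildtype whole flies, against 32.1 and 29.3 in mutant, from 121 and 116 reads and 455 and 396 reads. The ratio of means was 3.59 and the difference 1.73 ± 0.12 (log2, SE, limma adjusted p = 0.000129). It was the lowest of the 72 in wildtype whole flies and ranked 37 in mutant. In muscle the gene did not separate the genotypes, with 17.2 and 19.2 FPKM in wildtype, against 16.1 and 19.8 in mutant. Its exons overlap no other annotated gene. Also of mitochondrial type, mRpL52 (2R, 7673721 to 7674400) rose from 27.95 and 27.2 FPKM to 53.8 and 40.1 (0.73), and mRpL42 from 40.3 and 46.1 to 69.0 and 55.6 (0.51).

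In the small subunit mRpS16 (2R, 14172986 to 14173596), whose bacterial counterpart acts early in small-subunit assembly, led with 20.1 and 19.7 FPKM in wildtype, against 46.5 and 35.0 in mutant whole flies. The rise was 0.99 ± 0.14 (log2, SE, limma adjusted p = 0.00366). mRpS28 (2R, 18614210 to 18615018) rose from 15.1 and 19.5 FPKM to 29.2 and 28.05 (0.71), mRpS14 from 21.2 and 26.2 to 39.6 and 31.7 (0.57), and mRpS25 from 29.3 and 27.5 to 41.9 and 37.9 (0.48). None of these groups overlapped. Of the exonic bases of mRpS14, 35.8% are shared with CG32533 or with Naa15-16, the latter on the opposite strand, and how counting treated strand is not given in the sources used here. mRpS18A, which despite its name sits in the large subunit of human mitochondrial ribosomes, rose from 28.8 and 28.1 FPKM to 42.3 and 35.1 (0.43).

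The classes gave like values in whole fly. Of 46 tested large-subunit genes 11 were higher and 1 lower, with a median of 0.27, and of 26 small-subunit genes 5 were higher, with a median of 0.28. Of 43 genes of bacterial type 11 were higher and 1 lower (median 0.33), and of 29 of mitochondrial type 5 were higher (median 0.22). Among the 30 genes that share no exonic base with another gene 8 were higher and 1 lower (median 0.25), and among the 42 others 8 were higher (median 0.28). None of these class differences was tested. Just past the threshold stood mRpL28 (0.35, limma adjusted p = 0.0501), mRpL34 (0.73, adjusted p = 0.0503) and mRpS18C (0.53, adjusted p = 0.0518).

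Beside the called mRpL23, mRpL12 and mRpS18A, the other genes chosen by role did not pass. mRpL2, at the catalytic centre, had 45.0 and 48.6 FPKM in wildtype, against 71.2 and 50.6 in mutant whole flies, a difference of 0.35 that did not pass. The tunnel proteins mRpL4 and mRpL22 had 0.19 and 0.34, mRpL3 0.28, mRpL24 0.09 and mRpL16 0.32. mRpL10, which anchors the stalk, had 0.33, and mRpL45, which in mammals lies at the tunnel exit facing the inner membrane, 0.22. mRpL44, which carries a domain related to ribonuclease III, had 0.20. In the small subunit mRpS29, the GTP-binding protein known in humans as DAP3, had 0.26, mRpS5 0.04, mRpS2 -0.01 and mRpS18B 0.10, and mRpS30, a large-subunit protein in spite of its name, 0.05. None of these passed. The lowest values that did not pass belonged to mRpS31 (-0.16), mRpL13 (-0.08), mRpL55 (-0.06) and mRpS23 (-0.03).

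Tissue markers moved between the whole-fly groups. The 16 ovary and eggshell markers had a summed 5803 and 5540 FPKM in wildtype, against 13249 and 10143 in mutant, with none at 0. The 10 muscle markers had 1970 and 1686 FPKM in wildtype, against 3773 and 3752 in mutant, and the 7 gut markers 11830 and 10945 in wildtype, against 7543 and 7488 in mutant. The 7 fat body markers had 7194 and 6851 FPKM in wildtype, where fit was at 0 in replicate 2, and 9994 and 9148 in mutant. Testis markers had 545 and 612 FPKM in wildtype, against 481 and 447 in mutant, with Mst84Da at 0 in all but mutant replicate 2. Male accessory gland markers had 619 and 636 FPKM in wildtype, against 678 and 768 in mutant, and neuronal ones 47.3 and 40.5 in wildtype, against 31.2 and 40.0 in mutant. Their part in the result was not tested. In bulk samples, fewer cells of a type and less RNA per cell cannot be told apart.

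In muscle the direction was the other way and nothing passed. Of the 72 genes 59 had a negative difference and 13 a positive one, with a median of -0.21 (log2) against 0.02 over all 10079 entries tested. In 40 of the 72 both mutants lay below both wildtypes, against 25.3% of all entries, and in 5 both lay above, against 23.6%. By limma 0 members were called, as 0% of all entries were, while 14 members were under 0.05 before adjustment, as were 1408 of all 10079 entries, and 0 were called by limma-voom on whole reads recovered from the FPKM. The summed FPKM was 1775 and 1784 in wildtype, against 1480 and 1564 in mutant, and the share of reads 0.158% and 0.164% against 0.144% and 0.123%. Both mutants were therefore below both wildtypes on either scale. Each mutant library on its own gave a like median against the wildtype mean, -0.21 in replicate 1 and -0.19 in replicate 2. With the mitochondrial genome left out of the total, a choice made after seeing the data, the member median was -0.15. That of all entries was 0.06. Of the members 19 were then positive and 53 negative. Both mutants lay below both wildtypes in 30 members and above in 7, where the deposited values gave 40 and 5.

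The muscle values depended on how gene length was treated. Over all muscle entries the difference was higher in longer genes (Spearman correlation of 0.25 across 10079 entries, -0.01 in whole fly), and with a smooth length trend removed from each library the median of the members was -0.011, with 32 positive and 40 negative. In whole fly the same removal left a median of 0.30 and 21 members higher, where 1269 of all 11419 entries were called higher and 1300 lower. The muscle median lay between -0.27 and -0.15 in the other fits tried.

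**Figure D2:**
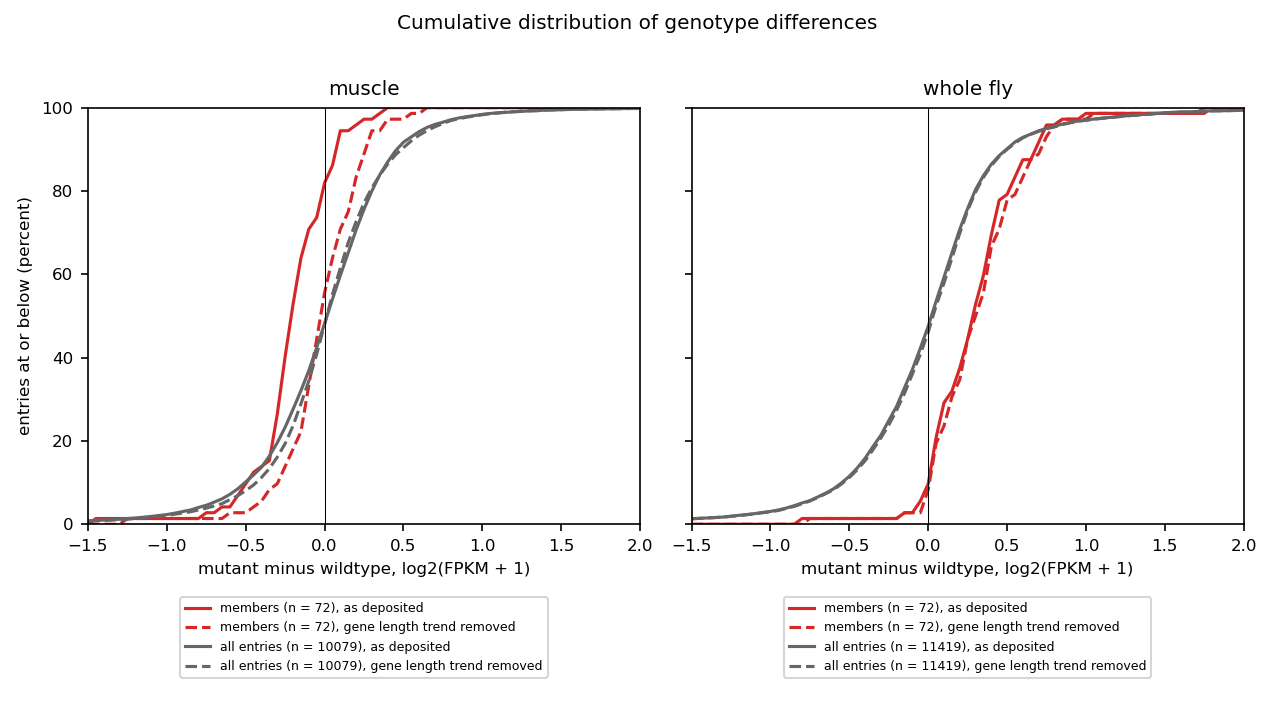
Share of entries (percent) at or below each genotype difference (mutant minus wildtype, log2(FPKM + 1)) in muscle and whole fly, for the 72 genes of the mitochondrial ribosome in red and all tested entries in grey. Solid lines are values as deposited and dashed lines those with the gene length trend removed. In muscle the red solid curve lies to the left (median -0.21) and its dashed form close to the grey curves (median -0.011), while in whole fly both red curves lie to the right (0.27 and 0.30).

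The member with the smallest p in muscle was mRpL20 (3L, 13017149 to 13017867). It had 29.1 and 30.6 FPKM in wildtype, against 8.86 and 11.6 in mutant, from 374 and 378 reads and 108 and 127 reads. The difference was -1.47 ± 0.16 (log2, SE, limma adjusted p = 0.171), which did not pass, although the mutants stood at 0.342 of the wildtype mean. A fit that shared its spread between all 8 libraries called this gene alone among the 72 (limma adjusted p = 0.0105). Of all 9444 genes in that fit, 193 were called lower in muscle and 58 higher. The next lower values belonged to mRpS21, with 22.9 and 22.7 FPKM in wildtype, against 14.6 and 11.2 in mutant (-0.79), and mRpS26, with 15.9 and 17.9 in wildtype, against 9.88 and 10.3 in mutant (-0.69). Of the exonic bases of mRpS21, 48% are shared with CG8870 on the opposite strand. mRpL49 (-0.57), mRpL42 (-0.56), mRpL9 (-0.54) and mRpS22 (-0.53) followed, all with both mutants below both wildtypes and adjusted p-values between 0.282 and 0.299.

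Few members had higher values in mutant muscle. mRpS10 had 17.7 and 20.1 FPKM in wildtype, against 25.8 and 24.5 in mutant, a difference of 0.40 (limma adjusted p = 0.326). mRpL13 had 12.6 and 13.5 FPKM in wildtype, against 14.4 and 19.5 in mutant (0.34), and it shares 35.2% of its exonic bases with CG10602 on the same strand. mRpS9 (0.24), mRpL52 (0.19) and mRpS33 (0.09) came next, with mRpL52 overlapping between the groups. Large-subunit genes chosen by role gave mRpL2 at -0.25, mRpL3 at 0.06, mRpL4 at -0.14, mRpL16 at -0.23, mRpL22 at -0.07, mRpL23 at -0.10, mRpL24 at 0.01, the stalk proteins mRpL10 and mRpL12 at -0.32 and -0.24, mRpL44 at -0.29 and mRpL45 at -0.25. Among genes with mRpS names mRpS2 had -0.18, mRpS5 -0.38, mRpS29 -0.21, mRpS18B -0.32 and mRpS18C -0.03, and mRpS18A and mRpS30, placed in the large subunit above, had 0.07 and -0.12. The most abundant member, mRpL28, had 132 and 134 FPKM in wildtype, against 105 and 113 in mutant, a difference of -0.29.

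Markers of other cell types differed between the muscle libraries. Ovary and eggshell markers had a summed 906 and 161 FPKM in wildtype, against 6.14 and 73.6 in mutant, with BicC, Cp16, Cp19, Vm32E or bam at 0 in single libraries. Fat body markers had 26758 and 14471 FPKM in wildtype, against 8473 and 19590 in mutant, gut markers 7566 and 9958 in wildtype, against 6973 and 5701 in mutant, and testis markers 114.9 and 33.7 in wildtype, against 340 and 1.59 in mutant, where Mst98Cb, ProtA, ProtB and dj were at 0 in replicate 2. Accessory gland markers had 48.4 and 14.1 FPKM in wildtype, against 74.3 and 2.63 in mutant, and neuronal ones 67.1 and 71.2 in wildtype, against 69.9 and 97.2 in mutant. Their part in the result was not tested. Muscle markers had 6909 and 9950 FPKM in wildtype, against 8045 and 7484 in mutant, so the groups overlap.

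The negative sign of mRpL20 in muscle was shared by its neighbours. Within 20 kb of the gene all 10 tested neighbours had negative differences in muscle, with a median of -0.89. Among them were CG11267 (-1.86), the adenylate kinase gene Adk2 (-1.84), MICAL-like (-1.15) and the cytoplasmic ribosomal protein gene RpS12 (-0.85). CG11262 (-0.08) was near the floor and overlapped, with 1.17 and 0.426 FPKM in wildtype, against 1.77 and 0 in mutant. Icmt (-0.61, SE 0.35) and Zmynd10 (-0.65, SE 0.49) also had low FPKM. In whole fly 8 of the 13 tested neighbours had positive and 5 negative values (median 0.10). Of the 63 members with 5 or more tested neighbours in muscle, mRpL20 alone had a neighbour median under -0.5. By limma none of the mRpL20 neighbours passed in muscle, as no entry did. The neighbours of mRpL54 shared no direction in whole fly, since the 9 tested had a median of -0.08, with 4 positive and 5 negative. Among them CG15653, whose centre lies 1.02 kb away, and CG10527 were called higher (0.66 and 0.56). Cht4 and Treh were called lower (-1.35 and -0.50).

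**Figure D3:**
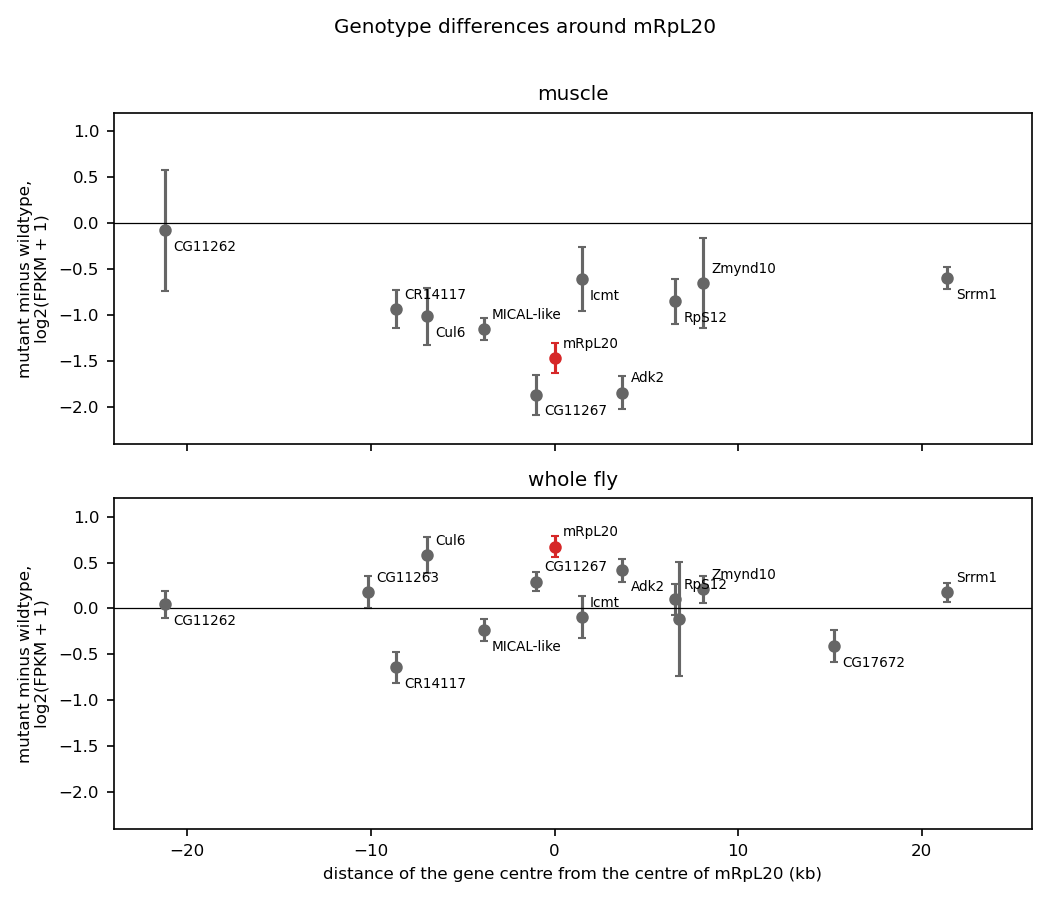
Genotype difference (mutant minus wildtype, log2(FPKM + 1), with its standard error) of mRpL20 in red and of its tested neighbours in grey, by distance of the gene centres in kb, in muscle and whole fly. In muscle all neighbours lie below 0 (median -0.89), as mRpL20 does at -1.47, while in whole fly they scatter around 0 and mRpL20 stands at 0.67.

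The difference between tissues was tested directly as the interaction of genotype and tissue in a limma fit over all 8 libraries. Of the 72 genes 66 had a muscle effect below their whole-fly effect, with a median of -0.48 (log2) against -0.03 over all 9444 genes tested in both tissues. The test called 6 members, all with the muscle effect below the whole-fly effect, where 4.22% of all genes were called in that direction and 1.61% in the other. These were mRpL20 (-2.14 ± 0.20, log2, SE, limma adjusted p = 0.00912), mRpL54 (-1.76 ± 0.19, adjusted p = 0.0119), mRpL9 (-1.21 ± 0.24, adjusted p = 0.0447), mRpS21 (-1.12 ± 0.22, adjusted p = 0.0455), mRpL28 (-0.64 ± 0.13, adjusted p = 0.0457) and mRpL42 (-1.07 ± 0.21, adjusted p = 0.0469). In mRpL54 the muscle value was near 0 (-0.02), and in the other 5 the values lay on opposite sides of 0. With the length trend removed only mRpL20 and mRpL54 were called among the members, where 451 of all 9444 genes were called in either direction. Leaving out 1 library gave 2 called members without either muscle wildtype, 14 without muscle mutant replicate 1 and 12 without muscle mutant replicate 2, and 0 without either whole-fly wildtype or without whole-fly mutant replicate 1. Over all genes, 399 and 152 were called in the 2 directions with the 8 libraries, in both directions together 219 and 293 without a muscle wildtype, 1518 and 1686 without a muscle mutant, and only 11, 17 and 13 in the fits that called 0 members. In those last fits the median of the members was -0.51, -0.48 and -0.36, with 66, 66 and 64 of 72 negative.

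By sign alone, 55 members (76.4%) were negative in muscle and positive in whole fly, where 31.7% of all 9444 genes were. With the length trend removed in the fit over all 8 libraries these were 32 members (44.4%) and 31% of all genes, and the median interaction went from -0.48 to -0.31, with 54 members negative. As deposited, a further 10 were positive in both, 4 negative in both, and 3 positive in muscle and negative in whole fly. The 2 sets of differences were hardly ordered alike, with a Spearman correlation of -0.15 across the 72 genes, so a gene far below 0 in muscle was not as a rule one far above 0 in whole fly.

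**Figure D4:**
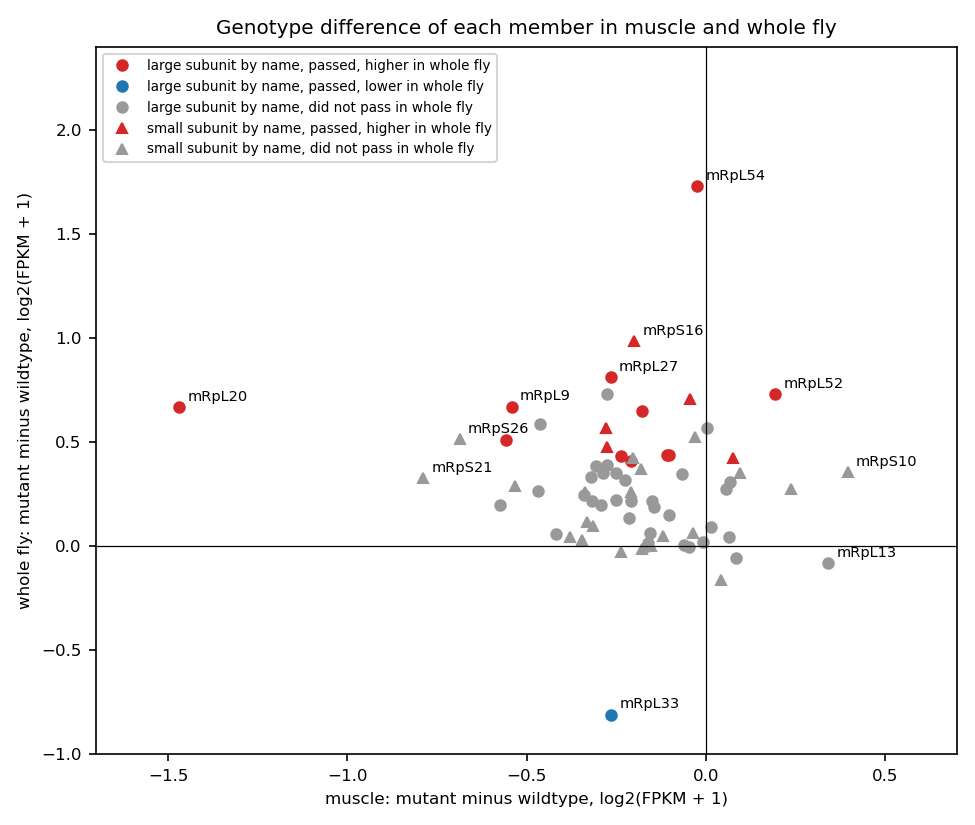
Genotype difference in muscle (x axis) and in whole fly (y axis) for each of the 72 genes, as mutant minus wildtype of log2(FPKM + 1). Circles are large-subunit and triangles small-subunit genes by name, red marks rose and the blue mark fell in whole fly by the limma test, and grey marks did not pass. Most points, 55 of 72, lie in the upper left, with mRpL54 at the top (1.73), mRpL20 at the far left (-1.47) and mRpL33 at the bottom (-0.81).

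Few of the other genes of mitochondrial gene expression passed in whole fly, in lists far shorter than the 72, and no difference from the members was tested. The mitoribosomal proteins with historical names, tko (a small-subunit protein of the decoding centre) and bonsai, had differences of 0.36 and 0.10, and neither passed. tko had 19.5 and 19.8 FPKM in wildtype, against 28.004 and 23.4 in mutant. Of 13 mitochondrial translation factors 0 passed, with a median of 0.13, 9 positive and 4 negative, and the elongation factor gene mEFTu1 had the smallest p (0.37, limma adjusted p = 0.0568). Of 16 mitochondrial aminoacyl-tRNA synthetases, which charge transfer RNAs, 1 rose, ProRS-m (0.49, limma adjusted p = 0.0434), and the median was 0.06. Of 12 genes of mitochondrial RNA and DNA upkeep 2 rose, with a median of 0.23. These were TFAM, the packaging protein of mitochondrial DNA, from 54.5 and 57.6 FPKM to 91.5 and 71.5 (0.52), and scu, a subunit of mitochondrial RNase P, from 179 and 189 to 315 and 239 (0.57).

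The 86 genes of the cytoplasmic ribosome had a median of -0.02 in whole fly, with 40 positive and 46 negative, and 2 rose, RpS21 (0.50) and the germline paralogue RpS5b (0.66). Of 22 tested transcripts of the mitochondrial genome 10 rose and 1 fell, with a median of 0.66. The 2 ribosomal RNAs of the mitochondrial ribosome were among those that rose, the large one from 19776 and 14500 FPKM to 43627 and 34734 (1.201) and the small one from 172 and 121 to 271 and 205 (0.70). In muscle the large one had 62834 and 54195 FPKM in wildtype, against 68232 and 178085 in mutant (0.92). The small one had 2547 and 1258 in wildtype, against 618 and 1521 in mutant (-0.88), and neither passed. The libraries were made with an mRNA kit, so FPKM of a ribosomal RNA may not follow its amount, which was not tested. In muscle 0 genes passed in each of these lists. Their muscle medians were 0.01 for translation factors, 0.00 for the synthetases, -0.01 for RNA and DNA upkeep, -0.12 for the cytoplasmic ribosome, where 70 of 85 were negative, and -0.66 for the mitochondrial genome, where 23 of 25 were negative. tko had 19.3 and 20.3 FPKM in wildtype, against 13.2 and 15.3 in mutant muscle (-0.45), and bonsai a difference of -0.07. The genes scu (-0.72) and SLIRP2 (-0.64), which binds mitochondrial messages, had the smallest p among RNA and DNA genes in muscle, and mRRF2, a ribosome recycling factor, had a positive value (0.77, limma adjusted p = 0.288).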

How the data were processed

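RNA libraries were made from 1.3 µg of total RNA with an mRNA kit, per the labels' protocols. The authors deposited 2 tables of FPKM. What aligner, counting tool, strand setting and filters were used is not given in the sources used here. A mouse build, mm10, appears in the submitters' processing notes, but the tables hold fly genes with coordinates of release 6 of the fly genome, which are printed 1-based. The coordinates of all 73 genes matched release 115 of the reference annotation, which also gave exonic overlaps. The columns of 1 table give genotype and repeat without a tissue and were taken as whole fly because the other table names all 4 muscle samples. FPKM times length, divided by a step fitted to each library, was a whole number of reads for 100% of values above 0 (tolerance 0.1 reads). The totals behind the FPKM differed from the summed reads by a factor of 0.884 to 1.089. In whole fly this factor was 1.02 and 1.07 in wildtype, against 0.935 and 0.984 in mutant. In muscle it was 1.001 and 1.03 in wildtype, against 1.089 and 0.884 in mutant.

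Each tissue was fitted alone with limma 3.58.1 (R 4.3.3, mean-variance trend) on log2(FPKM + 1), a scale that understates changes of low genes, for entries that reached an FPKM of 1 in 2 or more of 4 libraries, with Benjamini-Hochberg adjustment over all entries at 0.05. The interaction of genotype and tissue used all 8 libraries. A model for raw counts was foreseen but not used, since the tables hold FPKM. The fits were tested on simulated data. The members and lists were chosen with earlier results of these data known. Named members have the largest changes or smallest p per tissue, the highest or lowest levels, or the smallest interaction p. A further set was chosen by role. Beyond these are the called members, the genes next to the threshold and those with the highest level ratio between tissues. The genes around mRpL20, mRpL33, mRpL54 and mRpL53 are also named. These additions were chosen after their values were seen. From other lists up to 3 passing genes or the 2 with the smallest p are named, and beyond these SLIRP2, tko, bonsai and the ribosomal RNAs.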

Additional observations from a re-analysis of the deposited data

Results flagged for a closer look

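For 6 genes of the mitochondrial ribosome the genotype effect differed between muscle and whole fly in the interaction test over all 8 libraries. The muscle effect minus the whole-fly effect (log2) was -2.14 for mRpL20, from -1.47 in muscle and 0.67 in whole fly. It was -1.76 for mRpL54, from -0.02 and 1.73. For mRpL9 it was -1.21, from -0.54 and 0.67, for mRpS21 -1.12, from -0.79 and 0.33, for mRpL42 -1.07, from -0.56 and 0.51, and for mRpL28 -0.64, from -0.29 and 0.35. The call of mRpL20 stood beside 10 neighbours that were all negative in muscle. The calls of mRpL20 and mRpL54 ended, as did those of the other 4, without either whole-fly wildtype or whole-fly mutant replicate 1. Those fits called 11 to 17 genes in all, and the median of the 72 members in them stayed negative, between -0.51 and -0.36.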

How the results depend on the processing

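Of the members in whole fly, 17 were called, and 7 with no filter on low values, 9 by limma-voom on recovered reads, 2 with a spread shared over both tables, 10 with gene-assigned reads as the total, and 7 to 40 with 1 library left out. All entries called in whole fly numbered 2372, and 544 with the shared spread and 1409 to 3213 with 1 library left out. Their higher share of 47.8% became 30.9% by limma-voom and 32.9% with gene-assigned reads. With no filter 1779 of 15565 entries were called, by limma-voom 2905 of 11419, and with gene-assigned reads 2607 of 11419. The 2 members called with the shared spread were higher, where 327 of all 9444 entries were. The whole-fly median of 0.27 ranged from 0.16 to 0.41 with 1 library left out. In muscle 0 entries were called, and 2 with quantile scaling, with an FPKM minimum of 5, over protein-coding entries or with the length trend removed, 251 with the shared spread, among them 1 member, and 0 to 12 with 1 library left out. The muscle median of -0.21 was -0.27 with median centring, -0.27 by limma-voom and -0.011 with the length trend removed, a trend fitted to all entries. The 6 interaction calls became 11 with a minimum FPKM of 5, 2 with the length trend removed and 0 to 14 with 1 library left out, which was added after seeing the data. With the replicate block 0 interaction calls and 23 whole-fly calls of members were made. Over all genes the interaction calls numbered 715 with the FPKM minimum of 5, 451 with the length trend removed and 16 with the block. The labels tie the replicate numbers to no shared batch, and the deviations of same-numbered libraries correlated at 0.389 in muscle and -0.149 in whole fly, which 2 pairs each cannot settle, so the numbers were not used to pair samples. The cause of these changes was not tested. For single named genes, 1353 of the alternative values kept direction and side of the threshold, 33 passed newly, 124 no longer passed and 148 moved otherwise. Of the last, 61 changed sign, all of genes that passed under neither setting. With 2 libraries a group and as few as 40 reads a gene, small differences were not detectable at this depth.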

Other observations

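In whole fly the shorter members differed more. The 37 genes up to the median length had a median of 0.36 (log2) with 12 called higher, and the 35 longer ones 0.22 with 4 called higher. The difference had a Spearman correlation of -0.33 with length across the 72 genes, and of -0.01 across all 11419 entries. In muscle the medians were -0.18 for the shorter and -0.23 for the longer genes. By chromosome arm, the whole-fly medians were 0.51 on 2R, where 5 of 11 tested members were higher, 0.39 on 3L with 5 of 17, 0.32 on X with 3 of 11 higher, 0.22 on 3R with 2 of 21, and 0.11 on 2L with 1 of 12. These splits were made after earlier results were known and were not tested. Over all entries 9.94% were called higher in whole fly, and this share was not computed by arm or length class.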
